A study of Xenopus laevis with 4 samples.

Results

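The repressor genes hey1, hes4 and hes1 were followed over 4 Affymetrix arrays of Xenopus laevis ectoderm. All probe sets whose single gene symbol was hey1.S, hes4.S, hes4.L or hes1.L were taken, which gave 8 of 32539 probe sets without controls, for 4 of 11303 annotated genes. This frog descends from a cross of distinct species and keeps a long (L) and a short (S) set of chromosomes, so most genes exist as a homeologous pair, and a suffix names the copy. hey1.S (Entrez Gene 399195) had 2 probe sets, hes4.S (398579) had 4, and hes4.L (398258) and hes1.L (397813) had 1 each. RefSeq lists the name hes4.L among the synonyms of hes4.S and the reverse, so the assignment of a hes4 probe set to a copy rests on the platform annotation.

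Embryos were injected at the 2-cell stage with synthetic RNA for ICD, DBM or HMM. Animal caps, the presumptive ectoderm, were cut at stage 9 to 10, cultured on fibronectin and lysed for total RNA at the equivalent of stage 12. ICD (2 arrays) commonly stands for the intracellular part of the Notch receptor, which acts without a ligand. DBM (1 array) is the usual name of a mutant of the Notch effector rbpj that cannot bind DNA, and HMM (1 array) is not spelt out in the labels. All 3 groups carry an injected RNA, so a value in untreated caps was not analysed here. A value raised by ICD thus cannot be told from one lowered by DBM or HMM, and the same holds in reverse. Rise and fall below mean only the value with ICD relative to DBM and HMM. No label gives a frog strain or clutch, or says that the ICD arrays came from separate cultures, so the p-values rest on a spread between arrays that may be technical.

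Hey and Hes proteins are basic helix-loop-helix repressors. When Notch is cleaved, its intracellular domain joins rbpj and a Mastermind protein at target promoters, and hey and hes genes are among the best known targets. Their proteins recruit co-repressors, Groucho (Tle) for the Hes group, and keep proneural genes and ligand genes silent, so that a cell that receives Notch signal does not take the fate of its neighbour. In the frog epidermis this lateral inhibition sets how many inner-layer cells become multiciliate cells and ionocytes.

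The 2% trimmed mean of the deposited signals was 150.7 on ICD replicate 1 and 376.8 to 408.9 on the other arrays, and every array was rescaled to a common trimmed mean. Values below are these rescaled MAS5 signals, on a linear intensity scale. Differences are on the scale log2(signal + 17.99). Fold values and ratios are likewise taken from the signal plus 17.99, not from the signals as printed. All of them understate changes of dim probe sets. Levels of different probe sets are not compared, because each has its own affinity. Of the ectoderm markers, dlx3.L read 4846 to 6736, and dlx3.S, both tfap2a copies and krt12.4.L were likewise bright on all arrays. Others were uneven or dim: cdh1.S read 2148 and 74.2 with ICD, 1246 with HMM and 91.5 with DBM, tp63.S read 325 and 462 with ICD, 26.6 with HMM and 72.7 with DBM, and tp63.L (8.80 to 78.6) was too dim to be tested. Mesoderm markers were near the bottom of the scale, with myf5.L, both myod1 copies, actc1.L and the mespa and mespb copies at signals of 1.98 to 54.3, and tbxt.L, the highest of them, reached 142 with DBM. In these bulk samples fewer cells of a type and less RNA per cell cannot be told apart.

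In caps with ICD, hey1.S and hes4.S stood far above their values with DBM or HMM, hes1.L stood far below, and hes4.L read higher without passing the test. Of the 8 probe sets, 4 were higher and 1 was lower with ICD than the mean of DBM and HMM at an adjusted p of 0.05 (limma, Benjamini-Hochberg over 19523 probe sets), while 3 missed the threshold. Of all probe sets tested, 3.93% were called, 1.90% higher and 2.04% lower. Both ICD arrays lay above both other arrays for 5 of the probe sets and below them for 1, that of hes1.L, and they overlapped for 2 dim probe sets of hes4.S. Over all probe sets tested, 19.3% had both ICD arrays above the others and 22.8% had both below. The member median was 3.12 on the log2 scale, against -0.01 over all probe sets, but it counts hes4.S 4 times and hey1.S 2 times. The members were chosen with earlier results of these data known, so these counts and this median are no independent support.

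**Figure D1:**
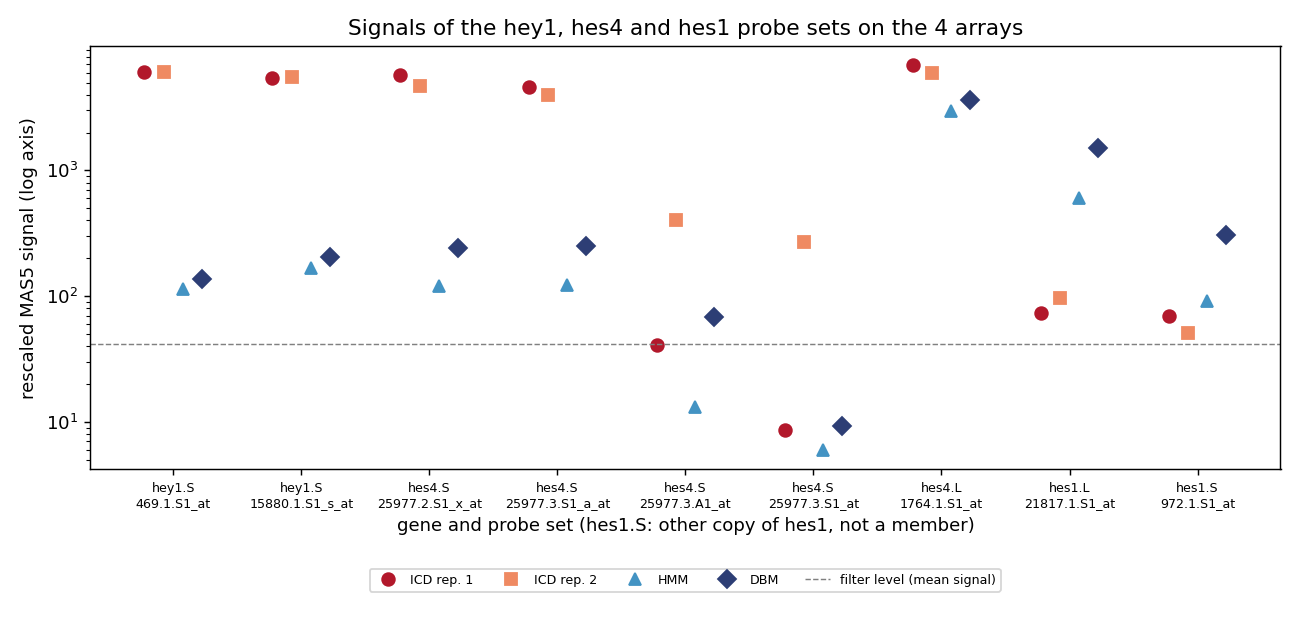
Rescaled MAS5 signal (log axis) of each probe set of hey1.S, hes4.S, hes4.L and hes1.L, and of hes1.S, on each of the 4 arrays. Each point is 1 array, and the dashed line is the filter level of 41.4 for the mean signal. Both ICD arrays lie above HMM and DBM for 5 of the 8 member probe sets and below them for hes1.L.

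hey1 encodes a Hairy-related repressor with a YRPW-type end, known as a direct Notch target in several vertebrates. Its brighter probe set (Xl2.469.1.S1_at) read 6066 and 6034 on the ICD arrays, 114 with HMM and 137 with DBM. The ICD arrays were nearly identical (22.6 SD around a mean of 6050, n = 2), and both were far from the other arrays. The difference from the mean of DBM and HMM was 5.41 ± 0.21 on the log2 scale (SE, limma adjusted p = 0.000276), a 42.4-fold higher value. Among 19523 probe sets it had the 3rd highest difference. The other probe set (Xl2.15880.1.S1_s_at), whose suffix s marks a set that can read transcripts of more than 1 gene, read 5475 and 5547 with ICD, 166 with HMM and 203 with DBM. It rose 27.4-fold (adjusted p = 0.000369), so both probe sets of the gene gave the same picture.

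Taken against each RNA alone, the brighter hey1.S probe set differed by 5.29 ± 0.25 from DBM (SE, limma adjusted p = 0.00118) and by 5.52 ± 0.25 from HMM (adjusted p = 0.000923). Those comparisons share the ICD arrays. With DBM against HMM, 1 array each and no test, hey1.S was 1.17-fold higher in DBM. The other homeolog, hey1.L, had no probe set with that symbol in the annotation and is not analysed here.

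hes4, also called hairy2 in the frog, is known there for holding cells of the neural plate border and neural crest in an undifferentiated state. By the platform annotation, its S copy had the larger difference. The brightest hes4.S probe set (Xl2.25977.2.S1_x_at) read 5772 and 4679 with ICD, 121 with HMM and 241 with DBM. It was 27.6-fold higher with ICD (log2 difference 4.78 ± 0.22 SE, limma adjusted p = 0.000378), the 9th highest of all probe sets tested. A second bright one (Xl2.25977.3.S1_a_at) read 4583 and 3976 with ICD, 123 with HMM and 249 with DBM. Its rise was 22.1-fold (adjusted p = 0.000419). The suffix x of the first marks probes that can also bind other transcripts, while the suffix a of the second marks a set that reads several transcripts of the same gene.

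The 2 remaining probe sets of hes4.S were dim and did not behave like the bright pair. Xl2.25977.3.A1_at read 40.9 on ICD replicate 1, 406 on ICD replicate 2, 13.1 with HMM and 68.5 with DBM. Here the groups overlapped, since ICD replicate 1 lay below DBM. Xl2.25977.3.S1_at read 8.53 and 267 with ICD, 5.95 with HMM and 9.19 with DBM, so only ICD replicate 2 was high and the groups overlapped again. The ICD arrays were 7.2-fold and 10.8-fold apart on these probe sets, whereas 5.61% of all probe sets tested were 2-fold or more apart. Their differences of 1.61 ± 0.84 and 1.77 ± 0.98 (SE) did not pass (limma adjusted p = 0.492 and 0.533). Without ICD replicate 2, and with DBM and HMM as 1 group, they were 0.18 and 0.06. Without ICD replicate 1 they were 3.03 (adjusted p = 0.119) and 3.48 (adjusted p = 0.0290). Both passed the filter on dim probe sets through the signal of ICD replicate 2.

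The probe set of the L copy, hes4.L (Xl2.1764.1.S1_at), read 6871 and 5911 with ICD, 2947 with HMM and 3608 with DBM. It was thus bright in every group, and both ICD arrays still lay above the others. The ICD mean of 6391 ± 679 (SD, n = 2) was 1.95-fold higher, a log2 difference of 0.96 with a 95% interval of 0.36 to 1.56. This missed the threshold (limma adjusted p = 0.107, unadjusted 0.00683). Under quantile normalization applied after the trimmed mean rescaling the value was 0.91 and passed (limma adjusted p = 0.0144). Over all alternatives the adjusted p of hes4.L ran from 0.0144 to 0.955. The hes4.L difference was 0.82 ± 0.31 (SE) against DBM and 1.11 ± 0.31 against HMM (limma adjusted p = 0.354 and 0.174).

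**Figure D2:**
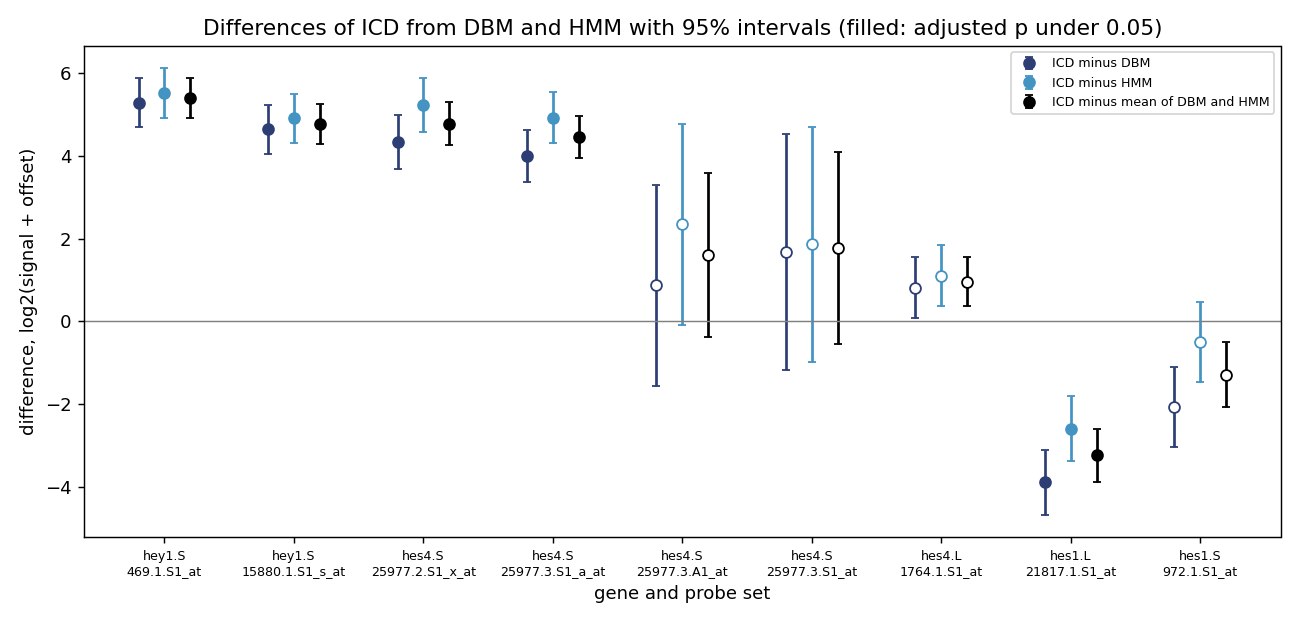
Difference of ICD from DBM, from HMM and from their mean on the log2(signal + offset) scale (vertical axis) for each probe set, with 95% intervals from limma. Filled points passed an adjusted p of 0.05: those of the hey1.S pair, the bright hes4.S pair and hes1.L in all 3 comparisons.

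Whether the copies of hes4 changed unequally was tested on the log2 ratio of the S to the L probe set on each array, in a limma fit over all 1360 genes with both copies measured above the filter. The S to L ratio of hes4 was 0.84 and 0.79 on the ICD arrays, 0.05 with HMM and 0.07 with DBM. Only the change of this ratio carries meaning, since its level depends on the probes. It rose 14.1-fold with ICD, by 3.82 ± 0.23 on the log2 scale (SE, 95% interval 3.25 to 4.39, adjusted p = 0.0110). This was the largest rise of the S copy relative to the L copy among the 1360 genes, while the median absolute change was 0.22. Since hes4 was chosen with earlier results of these data known, that rank is a description only. In all, 8 genes (0.588%) passed, 0.147% (2 genes) with the S copy raised and 0.441% (6 genes) with it lowered relative to the L copy. That count was 0 without either ICD array, with DBM and HMM as 1 group (118 and 109 genes then had an unadjusted limma p under 0.05), 2 without DBM, 1 without HMM and 2 without the filter. Without DBM the comparison is with HMM alone, and without HMM it is with DBM alone. The second bright hes4.S probe set gave 3.50 (limma adjusted p = 0.0194), an alternative chosen after the data were seen.

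The scale of an array cancels from the ratio except for the added offset. Without rescaling the hes4 value was 3.85 (limma adjusted p = 0.0137). In that setting the comparison with DBM alone did not pass (limma adjusted p = 0.0559), and 1 homeolog pair was called. Leaving out ICD replicate 1 or 2, with DBM and HMM as 1 group, kept the size (3.78 and 3.86) but lost the call (adjusted p = 0.113 and 0.214). With all arrays and that grouping it passed (adjusted p = 0.0155). The hes4 ratio differed by 4.13 from HMM (adjusted p = 0.0205) and by 3.52 from DBM (adjusted p = 0.0485), and the comparison with DBM alone lost its call in 5 of 8 alternatives. A ratio within an array shows unequal change of the 2 probe sets and does not show that hes4.L was constant. Whether the hes4 probe sets also bind the transcript of the other copy was not tested, so unequal change of the copies rests on the annotation.

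**Figure D3:**
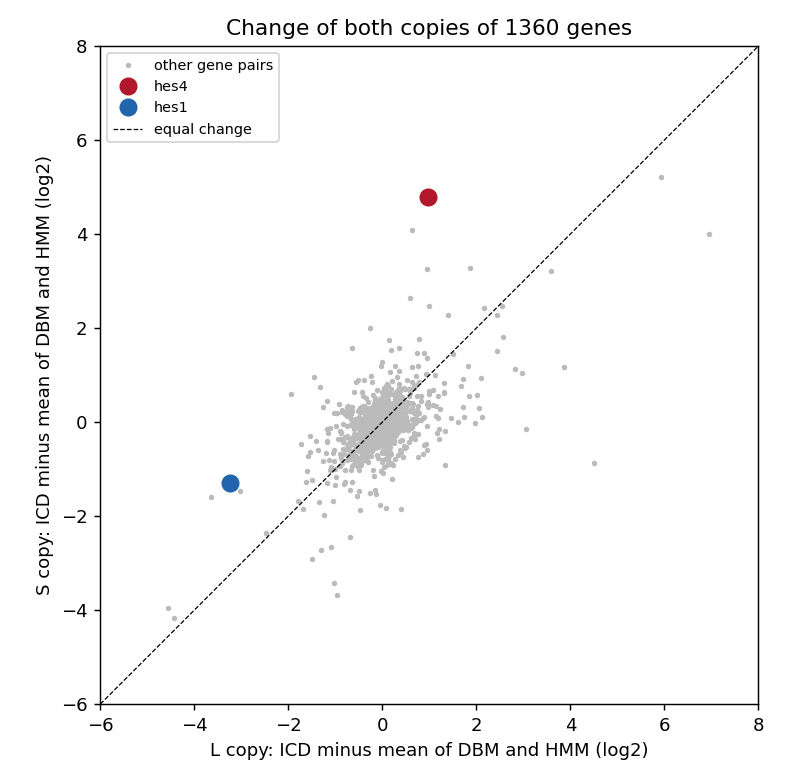
Change of the S copy (vertical axis) against change of the L copy (horizontal axis), each as ICD minus the mean of DBM and HMM on the log2 scale, for 1360 genes with both copies tested. hes4 lies at 0.96 for L and 4.78 for S, far above the dashed line of equal change, and hes1 at -3.24 for L and -1.29 for S.

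hes1, the frog hairy1 gene, encodes the repressor whose mammalian form is a standard Notch target, yet its L copy was lower with ICD. hes1.L (Xl2.21817.1.S1_at) read 73.7 and 96.8 on the ICD arrays, 601 with HMM and 1506 with DBM. Both ICD arrays were below both others, and DBM and HMM themselves stood apart. The value with ICD was 9.47-fold lower, -3.24 ± 0.27 on the log2 scale (SE, limma adjusted p = 0.00215), the 34th lowest difference of 19523. Against DBM it was 14.9-fold lower (adjusted p = 0.00435) and against HMM 6.04-fold lower (adjusted p = 0.0160). Without ICD replicate 1 or 2, and with DBM and HMM as 1 group, the values were -3.08 and -3.41 and did not pass (adjusted p = 0.0842 and 0.0941). With all arrays in that grouping the adjusted p was 0.0332.

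The other copy of the gene, hes1.S (Entrez Gene 379073), is no member but had 1 probe set that passed the filter. It read 69.3 and 50.7 with ICD, 92.1 with HMM and 307 with DBM, so it stood in the same order as hes1.L. Its difference of -1.29 ± 0.33 (SE) did not pass (limma adjusted p = 0.102). The S to L ratio of hes1 had a change of 1.96 ± 0.39 (SE), the S copy having the smaller difference, and missed the threshold over the 1360 genes (limma adjusted p = 0.163). Under a larger offset, 1 times the median, that value was 1.80 and passed (adjusted p = 0.0134).

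The same 5 probe sets passed in the comparisons with DBM alone and with HMM alone, 4 higher and 1 lower in each. Against DBM, 2.32% of all probe sets tested were called, 0.840% higher and 1.48% lower. Against HMM the shares were 1.74%, 1.23% and 0.507%. These comparisons share the ICD arrays. hes4.S was 20.2-fold above DBM and 37.7-fold above HMM at its brightest probe set.

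Between DBM and HMM there is 1 array on each side and no test. All 8 member probe sets, of which hes4.S gives 4, read higher with DBM, against 47.6% of the probe sets tested. The dim hes4.S pair counts little here. Xl2.25977.3.S1_at read 5.95 with HMM and 9.19 with DBM, and Xl2.25977.3.A1_at 13.1 with HMM, all under the filter level of 41.4. hes1.L was 2.46-fold higher with DBM and the dim hes4.S probe set Xl2.25977.3.A1_at 2.78-fold. The bright hes4.S pair was 1.87-fold and 1.90-fold higher, and the probe sets of hey1.S, hes4.L and the other dim hes4.S set stood 1.14-fold to 1.22-fold higher. DBM was 2-fold or more above HMM on 3.86% of all probe sets tested and 2-fold or more below it on 2.88%. The members share these arrays, so their common sign is not 8 separate observations. Thus hes4.S, which was higher with ICD, and hes1.L, which was lower, both read higher with DBM than with HMM.

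Among related genes, hes1.S aside, 14 further copies of the Hairy, Enhancer-of-split and Hey type were measured and 9 passed the filter. Those 9 were hes5 genes, and each was called higher with ICD. For 3 of them both HMM and DBM lay under the filter level, so they were tested only because of their ICD signal. hes5.5.S, at 31.8 with HMM and 47.4 with DBM, likewise passed only through its ICD signal. The count is thus no independent support. Without the filter 9 of the 14 copies were higher and 0 lower, with a median of 3.81 on the log2 scale, while 1.10% of all 11303 named genes were higher and 1.08% lower. The values of the tested copies ran from 3.59 for hes5.3.L to 6.95 for hes5.2.L, with hes5.10.L at 3.61 and hes5.2.S at 4.01. hey1.S and the bright hes4.S pair lay inside that span, and the dim hes4.S pair (1.61 and 1.77) lay below it. hes4.L lay below it and hes1.L had the opposite sign. hes1.S, tested apart from these 14 copies, also had the opposite sign (-1.29) and did not pass (limma adjusted p = 0.102). hes2.L, hes7.1.L, hes7.2.L and both bhlhe40 copies were too dim to be tested, with signals of 5.69 to 42.6 on the arrays.

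Co-repressors and partners that Hes and Hey proteins use gave 0 called of 18 tested by limma, with a median of 0.19, and 1 had an unadjusted p under 0.05. Of all 7989 named genes tested, 2.22% were called higher and 2.58% lower, and 15.3% had an unadjusted p under 0.05. A count of 0 among 18 is near that background. The largest differences were those of id3.L (0.82), id3.S (0.55) and id2.S (0.52), which encode helix-loop-helix partners, and runx1.L (0.47). The Groucho-type genes tle4.S and tle2.L had differences of 0.20 and 0.11. The copies of tle5 had 0.29 (tle5.L) and 0.14 (tle5.S). Of the core Notch list that follows, rbpj.S, the DNA-binding effector of Notch, had -0.22 (limma adjusted p = 0.814), and notch1.S -0.35. ICD and DBM are usual names for forms of Notch and rbpj. Whether these 2 probe sets also read the injected RNA was not tested.

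Of 20 tested copies of the core Notch pathway 3 rose, 2 fell and 15 did not pass (median -0.11). The 2 that fell were ligand genes of the Delta type, dll1.L (-5.20) and dlc.L (-4.59). nrarp.S (3.21), a feedback inhibitor, jag1.L (1.79), a ligand gene, and dtx4.L (1.36), a Deltex-type regulator, rose. Proneural and neuronal genes, a class that Hes and Hey proteins are known to repress, gave 4 lower, 0 higher and 2 not passed of 6 tested, out of 21 measured. Of the called copies, myt1.S lay under the filter level on both ICD arrays, and insm1.L had an ICD mean of 35.1, also under it. Both were tested only because of DBM and HMM, so the count is no independent support. Without the filter 1 of the 21 copies was lower and 0 higher, with a median of 0.05. The differences of the called copies were -3.64 for gadd45g.L, -1.86 for insm1.L, -1.61 for myt1.S and -1.58 for gadd45g.S. The proneural genes proper, such as the copies of neurog2, neurod1, atoh7 and ascl2, were too dim to be tested.

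Some markers of other tissues were called in the same caps, against 2.22% higher and 2.58% lower of all named genes tested. Of 7 tested copies of neural plate and border markers 2 rose, zic1.S (2.59) and sox3.S (2.48), and 5 did not pass (median 0.98, and 0.46 without the filter). Their summed signal over 12 copies was 14502 and 15792 with ICD, 9717 with HMM and 9828 with DBM. This sum and those below are weighted to the brightest probe sets and do not measure the amount of a tissue. Of 8 tested endoderm copies 4 fell, led by gata6.S (-2.91) and hhex.L (-2.15). For 4 of the 8 both ICD arrays lay under the filter level, so they were tested only because of HMM and DBM. Without the filter 2 of 10 copies were lower and 0 higher, and the sum over 10 copies was 449 and 486 with ICD, 1503 with HMM and 1626 with DBM. The sox17a copies, which define endoderm, stayed at 10.7 to 19.5. Ectoderm copies gave 1 higher (tp63.S, 2.67), 2 lower (grhl3.S, -1.44, and krt12.4.S, -1.44) and 10 not passed of 13 (median 0.14; without the filter 1 higher and 0 lower), with sums of 71302 and 50224 with ICD, 56459 with HMM and 60760 with DBM. Mesoderm copies gave 0 called of 3 tested by limma (median -0.82) and 0 at an unadjusted p under 0.05, with sums over 10 copies of 175 and 358 with ICD, 247 with HMM and 387 with DBM. The part of these shifts in the hes4 and hes1 values was not tested.

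Genes with the nearest pattern were found as the smallest Euclidean distance over the 4 arrays, on log2 values centred on each probe set's mean, among 10285 candidate probe sets with a gene name. With 4 arrays this is a description only. The values were centred but not scaled, so the distance reflects the size of a change as well as its shape. Nearest to hey1.S were hes5.6.L (distance 0.18), hes5.1.S (0.40) and hes5.1.L (0.56). Nearest to hes4.S were hes5.5.S (0.38), cnfn.1.L (0.40), a cornifelin-type gene, and hes5.7.L (0.71). The 3 nearest to hes4.L, otub1.S (0.04), oaf.S (0.08) and enoph1.S (0.09), are no Hairy-type genes. None of them passed the test, like hes4.L itself, for whose values they were picked. Nearest to hes1.L were tekt2.S (0.19), a tektin gene of the ciliary axoneme, itln1.L (0.21), the intelectin of goblet cells, and foxn4.S (0.22), a forkhead gene of the multiciliate cell program. tekt2.S, at 22.7 and 28.5 with ICD, was a candidate only through its HMM and DBM signal. hes5.6.L, hes5.5.S and cnfn.1.L were candidates only through their ICD signal. Among the members, hey1.S and hes4.S lay 0.81 apart, hes4.L 3.85 from hes4.S, and hes1.L 8.69 from hey1.S.

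**Figure D4:**
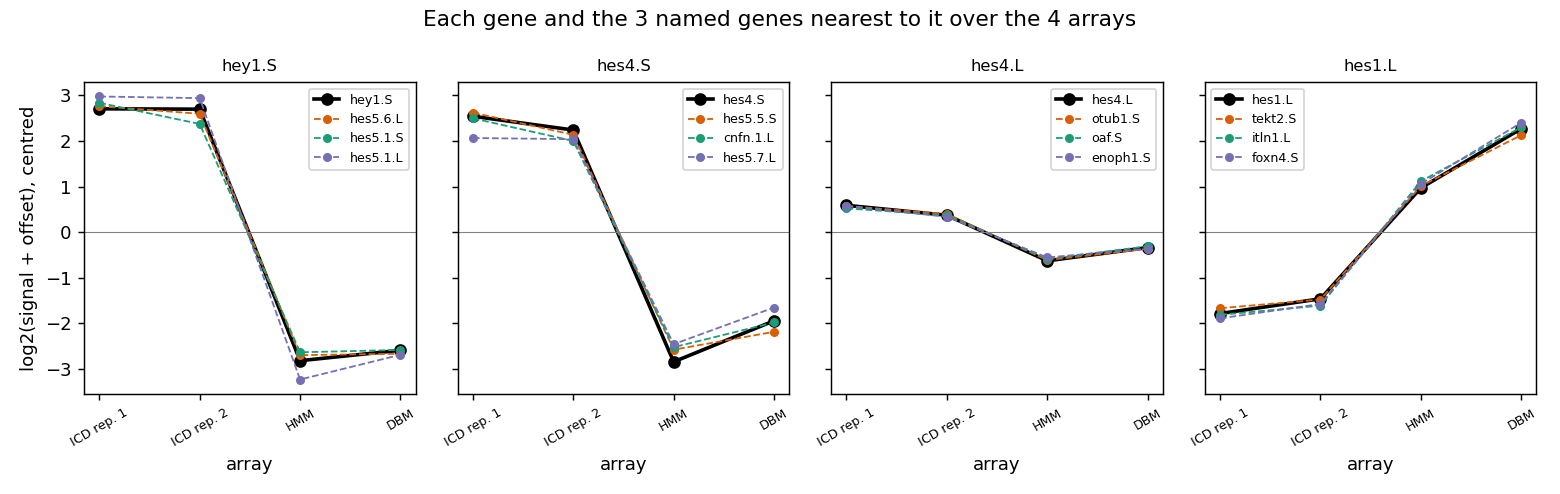
Log2(signal + offset), centred on each probe set's mean, over the 4 arrays (horizontal axis) for hey1.S, hes4.S, hes4.L and hes1.L (black) and the 3 named genes nearest to each (colours). hey1.S and hes4.S run with hes5 genes, high with ICD, and hes1.L runs with tekt2.S, itln1.L and foxn4.S, highest with DBM.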

How the data were processed

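Expression was measured on 4 arrays, ICD (2), HMM (1) and DBM (1), grouped by their titles. The authors deposited intensity values, 1 linear MAS5 signal for each probe set on each array, per the submitters' processing notes; the MAS5 version and scaling target are not given there. No detection calls were used. Each of 32635 probe sets (96 controls left out) took its name from GEO's platform annotation, with symbols brought up to date by Entrez number from RefSeq (Xenopus_laevis_v10.1): 15495 had 1 symbol, 279 several and 16765 none, and the last 2 kinds stay unnamed. Arrays were rescaled to a common 2% trimmed mean and put on the scale log2(signal + 17.99), where 17.99 is 0.25 times the median. A filter at the 40th percentile of the mean signal, 41.4, kept 19523 probe sets. limma 3.58.1 (R 4.3.3) fitted 1 mean per injected RNA, with eBayes and an intensity trend, two-sided, and Benjamini-Hochberg adjustment at 0.05. The ICD pair gives 1 residual degree of freedom, beside 5.82 prior ones, and that spread is applied to the single DBM and HMM arrays. For the copies of a gene the same fit used the S to L ratio on each array, with the mean level of the pair as trend and the probe set of highest mean signal per copy. Gene lists used 1 probe set per copy by the same rule. The scripts were checked on simulated data. Figures used matplotlib 3.10.9 in Python 3.11.15.

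The members, the gene lists and the rules were chosen with earlier results of these data known. Named besides the members were up to 4 tested genes of each list with the largest difference, every called one of the Hairy-type and co-repressor lists, and the 3 nearest patterns; dtx4.L, rbpj.S, notch1.S, the tle copies, hes1.S and the untested and unchanged copies were named after their values were seen. Alternatives covered the offset, the filter, the scaling, the trend, DBM and HMM as 1 group, and each array left out. The number of arrays limits the precision.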

Additional observations from a re-analysis of the deposited data

How the results depend on the processing

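No member value changed sign under any setting. Without rescaling, the spread of the ICD pair takes up the dimness of ICD replicate 1: the median of all probe sets moved to -0.67, limma called 0 probe sets in all 3 comparisons (132, 88 and 56 had an unadjusted p under 0.05), and no member passed, at 4.72 and 4.08 for hey1.S, 4.09 and 3.77 for the bright hes4.S pair and -3.85 for hes1.L. Quantile normalization made hes4.L pass (0.91). Leaving out DBM makes the comparison with the mean one with HMM alone, and leaving out HMM makes it one with DBM alone. The count of calls against the mean of DBM and HMM was 768, and 411 with those as 1 group. With an array left out it was 337 (DBM), 427 (HMM), 150 (ICD replicate 1) and 62 (ICD replicate 2), the last 2 with DBM and HMM as 1 group. Against DBM 452 probe sets were called, 220 without the filter and 223 without the trend. Against HMM the counts were 340, 224 and 170. With an array left out, hey1.S ran from 5.29 to 5.52 and from 4.65 to 4.91, the bright hes4.S pair from 4.33 to 5.23 and from 4.0 to 4.93 (all of these passed), hes4.L from 0.82 to 1.11, the dim hes4.S pair from 0.18 to 3.03 and from 0.06 to 3.48, hes1.L from -3.89 to -2.59 (-3.08 without ICD replicate 1 and -3.41 without ICD replicate 2, not passing) and the hes4 ratio from 3.52 to 4.13 (3.78 and 3.86 likewise, not passing). Except for the dim hes4.S pair, the ends of these ranges are the differences from DBM alone and from HMM alone, and no separate check. Without an ICD array the spread comes from DBM and HMM, on which hes1.L was 2.46-fold apart. The filter at the 60th percentile left out both dim hes4.S probe sets. The count of called homeolog pairs, 8, ran from 0 to 32 over all settings, and was 1 to 32 over the offset and scaling settings. No paired analysis was possible because the groups compared share fewer than 2 replicate numbers.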
